A study of Mus musculus with 16 samples.

Results

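The 9 genes described here encode costimulatory receptors of T cells and ligands of the tumour necrosis factor (TNF) family: Cd27, Cd28, Icos, Tnfrsf4, Tnfrsf9, Tnfrsf18, Tnfsf8, Tnfsf10 and Fasl. They were chosen by name, with earlier results of these data known, so counts of members are a description. Each was read from a probe set assigned to that gene symbol alone, and all 9 had 1 such probe set among the 22180 genes tested. A further Tnfrsf18 probe set that is shared with Gm16008 was left out. The cells were CD8 T cells from the spleens of female mice (strain label C56BL/6) that carried bone marrow grafts and had then been given leukaemia cells from Eµ-TCL1 mice, a model of chronic lymphocytic leukaemia (CLL). The grafts were Il4i1 knockout (KO) or wild type (WT), and Il4i1 encodes a secreted enzyme that oxidises aromatic amino acids. At 5 weeks after the leukaemia transfer the cells were sorted into effector cells (CD44+ CD127-) and memory cells (CD44high CD127high), which gave 4 groups of 4 samples each, effector KO and effector WT cells and memory KO and memory WT cells. Mice of all 4 groups carried a graft and leukaemia, so there was no leukaemia-free group. The sources used here do not give the genotype or remaining T cells of the graft hosts, the mice behind each sample or their ages. Whether the samples of a group were separate animals is not stated, and the p-values reflect sample-to-sample spread alone, which may be technical. RNA was read on 1-colour Affymetrix arrays, and values are log2 expression as normalised by the authors.

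Activation of a T cell through its antigen receptor is shaped by costimulation. CD28 and ICOS belong to the immunoglobulin superfamily and recruit phosphoinositide 3-kinase, whereas CD27, OX40 (Tnfrsf4), 4-1BB (Tnfrsf9) and GITR (Tnfrsf18) are TNF receptors that bind TRAF adaptors and activate NF-kB. CD27 and CD28 are present on resting T cells, while ICOS, OX40 and 4-1BB are known as receptors that appear or increase on activation. The ligands act in the other direction: Fas ligand (Fasl) and TRAIL (Tnfsf10) engage death receptors on target cells, and CD30 ligand (Tnfsf8) binds the TNF receptor CD30.

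The 16 arrays were alike in level, with array medians between 4.1169 and 4.2214. Array effector KO 4 stood furthest from the rest, with correlations over genes of 0.965 to 0.974 to the other arrays, while all other pairs lay between 0.971 and 0.994. The 5 measured markers of CD8 T cells lay above the array median on all arrays, with list means of 11.32 to 11.54. Il7r, which encodes the sort marker CD127, averaged 5.69 in effector KO, 4.04 in effector WT, 11.08 in memory KO and 10.71 in memory WT, and its effector values did not overlap its memory values. Since whole sorted populations were measured, fewer cells that express a gene and less RNA per cell cannot be told apart.

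Over these 16 arrays the 9 genes fell into 3 kinds of pattern. Tnfsf8, Fasl and Cd27 separated effector from memory cells, Tnfsf8 lower and the others higher in effector cells. Tnfrsf9, Tnfrsf4, Icos and Tnfrsf18 were lowest on the same 3 KO arrays, without a KO effect that passed the test. Tnfsf10 was at 0.36 in effector minus memory cells, short of the threshold, and Cd28 overlapped between all groups. No member passed the test between KO and WT in either subset, and no member's KO effect differed between subsets past the threshold. The plot of the members by array shows all of these values.

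**Figure D1:**
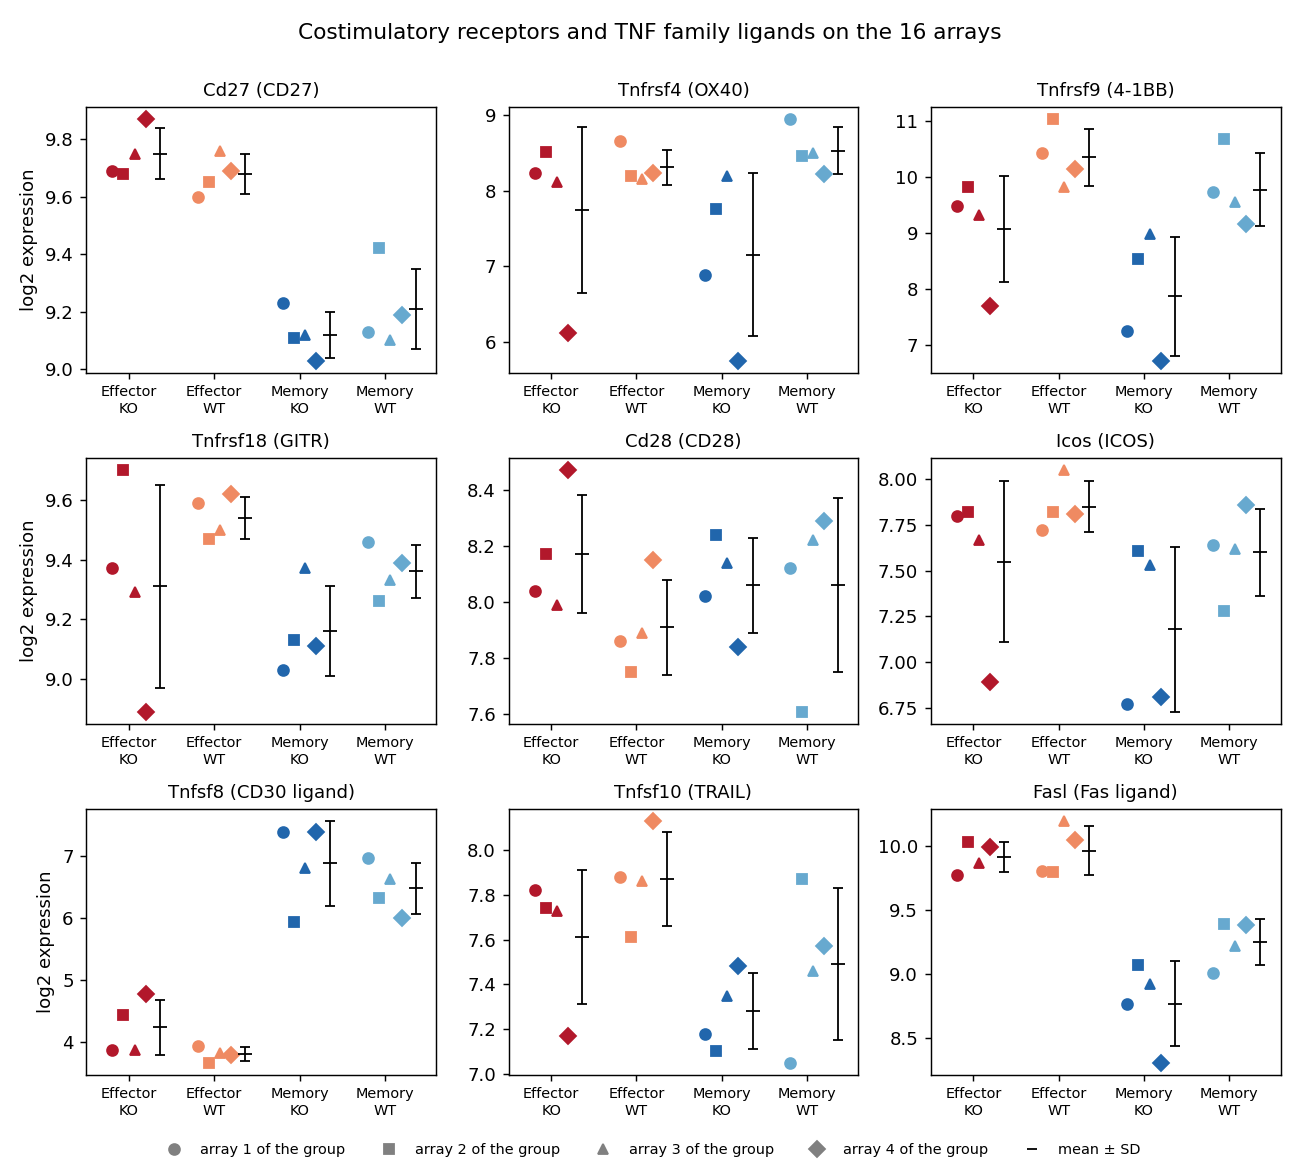
Log2 expression of the 9 genes on each array (vertical axes, scaled per gene) by group; the marker shape gives the array number within its group, and black bars are means ± SD (n = 4). Tnfsf8 lay between 3.67 and 4.77 in effector cells and between 5.94 and 7.39 in memory cells, and the lowest Tnfrsf9 and Tnfrsf4 values belong to arrays memory KO 4, memory KO 1 and effector KO 4.

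The comparison of effector with memory cells asks how the 9 genes differ between the sorted subsets, and it was made over both genotypes and within each. Over both genotypes 3 of the 9 members passed, 2 higher and 1 lower in effector cells, in the limma fit at an adjusted p under 0.05. Of all genes, 12.2% passed (5.05% higher, 7.11% lower). The median log2 fold change of the members was 0.31, and that of all genes was 0.01. The same 3 members passed within KO, where 7.43% of all genes did, and within WT, where 3.22% did.

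Tnfsf8, the gene of CD30 ligand, was the member with the widest gap. Its values were 3.87, 4.44, 3.87 and 4.77 in effector KO, 3.94, 3.67, 3.83 and 3.79 in effector WT, 7.39, 5.94, 6.80 and 7.39 in memory KO, and 6.97, 6.32, 6.62 and 6.00 in memory WT. Every effector array lay below every memory array, as for 1.86% of all genes. Over both genotypes Tnfsf8 was 6.31-fold lower in effector cells (log2 fold change -2.66 ± 0.20 SE, n = 8 and 8, limma adjusted p = 5.55e-07). The gap had nearly the same size in both genotypes, at -2.64 ± 0.29 in KO (adjusted p = 4.85e-05) and -2.67 ± 0.29 in WT (adjusted p = 7.07e-05). The effector signal was dim, above the array median on 2 of 4 KO arrays and 0 of 4 WT arrays. The table has no background level to set it against, and the true fold may differ.

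Tnfsf8 was ordered memory KO, memory WT, effector KO, effector WT, with means of 6.88 ± 0.68, 6.48 ± 0.41, 4.24 ± 0.44 and 3.81 ± 0.11 (SD, n = 4 each). KO and WT overlapped in each subset, so only the step between the subsets exceeds the spread. Markers of B and CLL cells, which could be carried into a sort, were also lower in the effector arrays. All 10 measured of the 12 listed passed in that direction, and their mean level was 5.20 to 5.52 in effector KO, 5.08 to 5.31 in effector WT, 5.93 to 6.51 in memory KO and 6.44 to 7.29 in memory WT. B cell signal was present in effector cells too. Cd79b, Ighm, H2-Aa and H2-Ab1 lay above the array median on all effector arrays, with Ighm at means of 9.56 in effector KO and 8.93 in effector WT, against 11.33 in memory KO and 11.09 in memory WT. Ms4a1, Pax5, Ebf1 and Blk lay above it on 0 effector arrays, and Cd79a and Cd22 on some. Of 10 myeloid markers 3 passed as lower and 1 as higher in effector cells, the last being Cd68 at 0.52 ± 0.14 (limma adjusted p = 0.0252). The lower ones were Fcer1g at -1.75 ± 0.10 (limma adjusted p = 4.64e-08), Csf1r at -1.01 ± 0.15 (adjusted p = 0.000217) and Lyz2 at -1.12 ± 0.20 (adjusted p = 0.00135), and the list mean was 5.49 to 5.64 in effector KO, 5.39 to 5.56 in effector WT, 5.59 to 6.43 in memory KO and 5.80 to 6.36 in memory WT. Of 6 NK cell markers 3 passed as lower, Gzmm at -2.11 ± 0.27, Klrb1c at -1.63 ± 0.29 and Ncr1 at -0.40 ± 0.12. As higher 1 passed, Eomes at 0.44 ± 0.07 (limma adjusted p = 0.000344). In memory cells the B and CLL list was lower in KO in 9 of 10 genes. Of these 1 passed, Cd22 at -1.04 ± 0.16 (limma adjusted p = 0.0145), where 0.113% of all genes passed. Whether such cells were carried into the sorts, and their part in the Tnfsf8 difference, was not tested.

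Fasl, the gene of Fas ligand, which triggers death of Fas-bearing cells, was higher in effector cells. It read 9.77, 10.03, 9.86 and 9.99 in effector KO and 9.80, 9.79, 10.19 and 10.04 in effector WT. In memory cells the values were 8.77, 9.07, 8.92 and 8.31 in KO and 9.01, 9.39, 9.22 and 9.38 in WT. All effector values lay above all memory values, a separation in this direction that 0.789% of all genes showed. The difference was 1.9-fold over both genotypes (log2 fold change 0.92 ± 0.11 SE, limma adjusted p = 2.6e-05). It was 1.14 ± 0.15 in KO (adjusted p = 0.000243) and 0.70 ± 0.15 in WT (adjusted p = 0.014). The call within WT was lost without effector WT 3 (0.63, adjusted p = 0.0566), effector WT 4 (0.67, adjusted p = 0.0518) or memory WT 1 (0.62, adjusted p = 0.0621), while over both genotypes every fit that left out 1 array kept it. Group means of Fasl ran from effector WT (9.96 ± 0.19) over effector KO (9.91 ± 0.12) and memory WT (9.25 ± 0.18) to memory KO (8.77 ± 0.33), and both steps within a subset lay within overlapping ranges.

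Cd27, a TNF receptor that binds CD70, showed a smaller and even difference. Its values were 9.69, 9.68, 9.75 and 9.87 in effector KO and 9.60, 9.65, 9.76 and 9.69 in effector WT. The memory values were 9.23, 9.11, 9.12 and 9.03 in KO and 9.13, 9.42, 9.10 and 9.19 in WT. The effector arrays again lay above all memory arrays, with group SDs of 0.07 to 0.14. Cd27 was 1.46-fold higher in effector cells (log2 fold change 0.55 ± 0.06 SE, limma adjusted p = 2.85e-05), at 0.63 ± 0.09 in KO and 0.47 ± 0.09 in WT. The order of means was effector KO, effector WT, memory WT and memory KO, at 9.75, 9.68, 9.21 and 9.12, and KO and WT overlapped in both subsets.

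**Figure D2:**
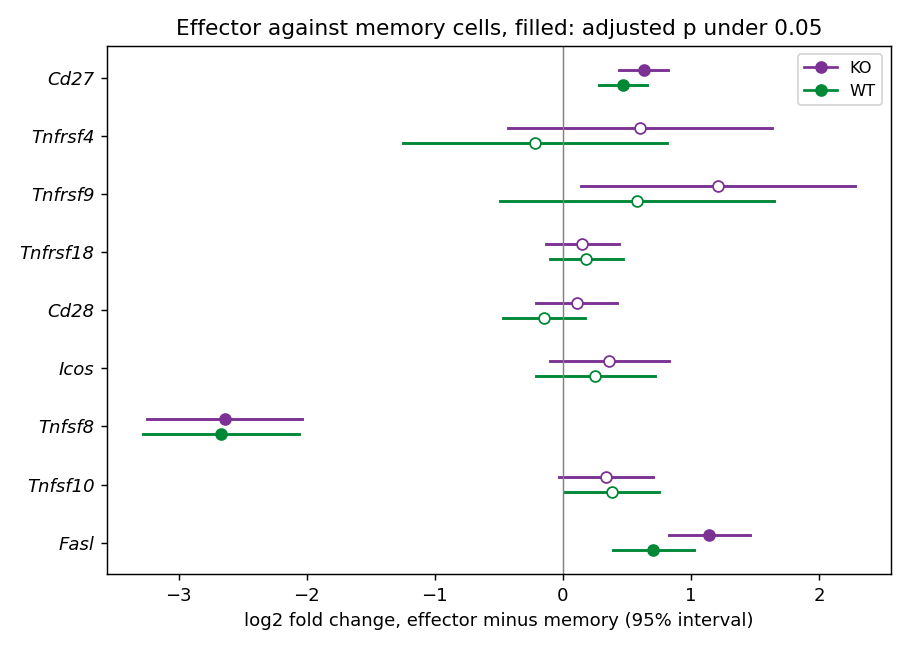
Log2 fold change of effector minus memory cells for each of the 9 genes (points) with its 95% interval (lines), in KO and in WT; filled points passed at an adjusted p under 0.05. Tnfsf8 lies at -2.64 in KO and -2.67 in WT, Cd27 and Fasl lie right of 0 in both, and the other genes did not pass.

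The other 6 members did not pass between the subsets over all 16 arrays. Tnfrsf9 was at 0.90 ± 0.36 (adjusted p = 0.128), Tnfsf10 at 0.36 ± 0.12 (adjusted p = 0.0695), Icos at 0.31 ± 0.15 (adjusted p = 0.252) and Tnfrsf18 at 0.17 ± 0.09 (adjusted p = 0.317). Without array effector KO 4, which was low for these genes, all 4 passed as higher in effector cells, Tnfrsf9 at 1.13 ± 0.32 (adjusted p = 0.0247), Tnfsf10 at 0.43 ± 0.11 (0.0144), Icos at 0.42 ± 0.13 (0.0441) and Tnfrsf18 at 0.24 ± 0.07 (0.0425). In that fit 3221 of 22180 genes passed, against 2696 with all arrays. Leaving out memory KO 4 instead, also low for Tnfrsf9, Icos and Tnfrsf18, none of these genes passed. Tnfrsf9 was then at 0.70 ± 0.34 (limma adjusted p = 0.251) and Tnfsf10 at 0.39 ± 0.13 (0.0654). Icos was at 0.25 ± 0.16 (0.419) and Tnfrsf18 at 0.16 ± 0.10 (0.415). Tnfsf10 also passed without memory WT 2 (0.42, adjusted p = 0.0279), and Tnfrsf9 passed within KO without effector KO 4 (1.67 ± 0.46, adjusted p = 0.0337). With all 16 arrays kept, Tnfrsf9 passed when arrays were weighted (1.05, adjusted p = 0.0234). Tnfsf10 passed when arrays were weighted (0.43, adjusted p = 0.0115) and when dim genes were filtered out (0.36, adjusted p = 0.0483). Tnfrsf4, at 0.19 ± 0.34, and Cd28, at -0.02 ± 0.11, did not pass with or without effector KO 4.

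The TNF receptors were also compared between KO and WT, which asks what the loss of Il4i1 in the graft goes with in each CD8 T cell subset. Tnfrsf9, the gene of 4-1BB, had the lowest KO values relative to WT. The effector KO arrays read 9.48, 9.82, 9.32 and 7.69, against 10.43, 11.04, 9.83 and 10.15 in effector WT. The memory KO arrays read 7.25, 8.53, 8.98 and 6.72, against 9.73, 10.69, 9.55 and 9.16 in memory WT. In each subset all KO arrays lay below all WT arrays, as for 1.94% of all genes in effector cells and 3.37% in memory cells. Neither difference passed over all genes. In memory cells it was -1.91 ± 0.50 SE (3.77-fold, limma adjusted p = 0.174), and in effector cells -1.28 ± 0.50 (2.43-fold, limma adjusted p = 0.488).

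Averaged over both subsets Tnfrsf9 was at -1.60 ± 0.36 (limma adjusted p = 0.0673), and the effects in the 2 subsets did not differ past the threshold (interaction 0.63 ± 0.71, limma adjusted p = 0.905). Whether Tnfrsf9 passed depended on the fit and on single arrays. With all arrays kept, it passed with the replicate number as a block, a pairing that the labels do not state. That block joined same-numbered arrays of all 4 groups, across KO and WT as well as across subsets. Tnfrsf9 was then at -1.91 in memory cells (limma adjusted p = 0.0268) and at -1.6 over both subsets (limma adjusted p = 0.00647). Without memory KO 3 the memory difference passed, at -2.28 ± 0.50 (adjusted p = 0.0398), and the average over subsets passed without memory KO 3 (-1.78 ± 0.34, adjusted p = 0.0286) or effector KO 2 (-1.72 ± 0.37, adjusted p = 0.0339). Without effector KO 4 the effector difference was -0.82 ± 0.46 (adjusted p = 0.853), and without memory KO 4 the memory difference was -1.53 ± 0.50 (adjusted p = 0.43). Tnfrsf9 means were 9.08 ± 0.95 in effector KO, 10.36 ± 0.51 in effector WT, 7.87 ± 1.06 in memory KO and 9.78 ± 0.65 in memory WT (SD, n = 4 each). The order from high to low was effector WT, memory WT, effector KO and memory KO, and each neighbouring pair in it overlapped.

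Tnfrsf4, the gene of OX40, had a similar but more uneven pattern. It read 8.23, 8.52, 8.12 and 6.11 in effector KO, against 8.66, 8.19, 8.16 and 8.24 in effector WT, and 6.89, 7.76, 8.19 and 5.75 in memory KO, against 8.95, 8.46, 8.50 and 8.22 in memory WT. The groups overlapped in effector cells and did not overlap in memory cells, where 3.37% of all genes were lower without overlap. The memory difference was -1.39 ± 0.49 (limma adjusted p = 0.291) and the effector difference -0.57 ± 0.49 (limma adjusted p = 0.726). Array effector KO 4 alone set the effector value, which was -0.02 ± 0.40 without it. Without memory KO 4 the memory difference was -0.92 ± 0.44 (limma adjusted p = 0.582). Group means ran from memory WT (8.53 ± 0.31) over effector WT (8.31 ± 0.23) and effector KO (7.74 ± 1.10) to memory KO (7.15 ± 1.08), with overlap between neighbours.

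Tnfrsf18, the gene of GITR, lies next to Tnfrsf4 on chromosome 4, with 0 protein-coding genes between them in the RefSeq table, and varied far less. Its values ran from 8.89 to 9.70 in effector KO and from 9.47 to 9.62 in effector WT, and from 9.03 to 9.37 in memory KO and from 9.26 to 9.46 in memory WT. The KO minus WT differences were -0.23 ± 0.13 in effector cells (limma adjusted p = 0.607) and -0.20 ± 0.13 in memory cells (limma adjusted p = 0.608). KO and WT overlapped in both subsets, and the order of means was effector WT, memory WT, effector KO and memory KO, at 9.54, 9.36, 9.31 and 9.16. In WT the effector arrays all lay above the memory arrays, as for 6.41% of all genes (0.18 ± 0.13, limma adjusted p = 0.624). Cd27 did not share the pattern, with KO minus WT differences of 0.07 ± 0.09 in effector cells and -0.09 ± 0.09 in memory cells, neither past the threshold.

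Among the receptors of the immunoglobulin superfamily, Icos read 7.80, 7.82, 7.67 and 6.89 in effector KO, against 7.72, 7.82, 8.05 and 7.81 in effector WT. In memory cells it read 6.77, 7.61, 7.53 and 6.81 in KO, against 7.64, 7.28, 7.62 and 7.86 in WT. A single effector KO array and a pair of memory KO arrays were low, and the groups overlapped in both subsets. The differences were -0.31 ± 0.22 in effector cells (limma adjusted p = 0.673) and -0.42 ± 0.22 in memory cells (limma adjusted p = 0.498), and the first was -0.09 ± 0.19 without effector KO 4. Icos means ran from effector WT (7.85 ± 0.14) over memory WT (7.60 ± 0.24) and effector KO (7.55 ± 0.44) to memory KO (7.18 ± 0.45), and no neighbours in that order were apart.

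Cd28, the receptor of CD80 and CD86, differed least across the 4 groups. Its ranges were 7.99 to 8.47 in effector KO, 7.75 to 8.15 in effector WT, 7.84 to 8.24 in memory KO and 7.61 to 8.29 in memory WT, all overlapping. The KO minus WT difference was 0.25 ± 0.15 in effector cells, with a 95% interval of -0.07 to 0.57. In memory cells it was 0.00 ± 0.15, with an interval of -0.32 to 0.32. Cd28 and Icos lie close together on chromosome 1, with 1 protein-coding gene between them, Ctla4, which encodes an inhibitory receptor of the same family. Ctla4 was at -0.18 ± 0.23 in effector KO against WT (limma adjusted p = 0.836) and at -0.82 ± 0.23 in memory KO against WT (limma adjusted p = 0.2).

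Of the ligands, Fasl had a memory KO minus WT difference of -0.48 ± 0.15 (limma adjusted p = 0.237), and the ranges of 8.31 to 9.07 in KO and 9.01 to 9.39 in WT overlapped slightly. In effector cells the difference was -0.04 ± 0.15, with a 95% interval of -0.36 to 0.27. The interaction of 0.44 ± 0.21 did not pass (limma adjusted p = 0.841). Tnfsf10, the gene of TRAIL, ranged from 7.17 to 7.82 in effector KO and from 7.61 to 8.13 in effector WT, and from 7.10 to 7.48 in memory KO and from 7.05 to 7.87 in memory WT. Its differences were -0.26 ± 0.17 and -0.21 ± 0.17 in effector and memory cells, with overlap in both. The order of its means was effector WT, effector KO, memory WT and memory KO, at 7.87, 7.61, 7.49 and 7.28, and neighbouring ranges overlapped. Tnfsf8 was at 0.43 ± 0.29 in effector KO against WT (limma adjusted p = 0.649). In memory KO against WT it was at 0.40 ± 0.29 (limma adjusted p = 0.644).

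In all, 0 of 9 members passed between KO and WT in effector cells and 0 of 9 in memory cells in the limma fit, where 0.0541% and 0.113% of all genes passed. At an unadjusted p under 0.05 the counts were 1 of 9 in effector cells (9.32% of all genes) and 3 of 9 in memory cells (11.3% of all genes). Over both subsets 0 of 9 passed after adjustment (0.194% of all genes), and 5 of 9 had an unadjusted p under 0.05 (13.9% of all genes), all lower in KO (7.19% of all genes). This comparison takes effector and memory arrays as independent. If they came from the same mice, which is not stated, its p-values may be too small. The interaction passed for 0 members and 0% of all genes, and 0 of 9 members had an unadjusted p under 0.05 there (5.84% of all genes). The members were lower in KO in 6 of 9 genes in effector cells and in 8 of 9 in memory cells, with median differences of -0.23 and -0.21, against 0.01 and 0.02 over all genes.

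**Figure D3:**
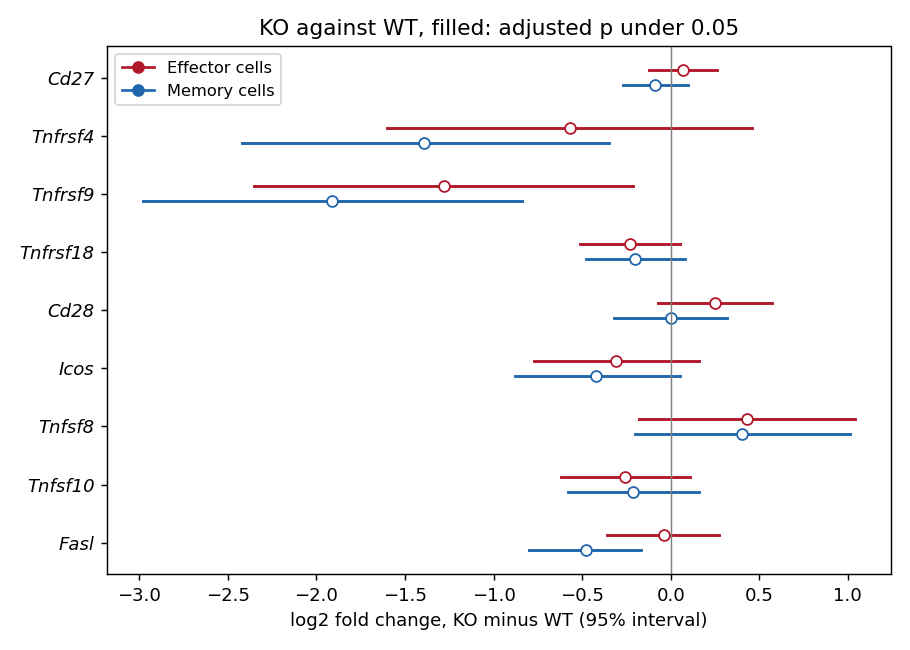
Log2 fold change of KO minus WT for each of the 9 genes (points) with its 95% interval (lines), in effector and in memory cells; open points did not pass at an adjusted p under 0.05. The widest intervals belong to Tnfrsf9 and Tnfrsf4, at -1.91 and -1.39 in memory cells, and Cd28 in memory cells lies at 0.

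The spread within the KO groups was shared between genes. Arrays memory KO 4, memory KO 1 and effector KO 4 were the 3 lowest of the 16 arrays for Tnfrsf9, Tnfrsf4, Icos and Tnfrsf18, which makes 4 of 9 members, against 2.36% of all genes. These arrays were singled out after the members' values were seen, so this is a description. For Tnfrsf4 the third lowest value was 6.89 and the fourth 7.76, for Tnfrsf9 the step was between 7.69 and 8.53, and for Icos between 6.89 and 7.28. For Tnfrsf18 it was 9.11 against 9.13, nearly a tie. Tnfsf8 showed the opposite order, with the highest value of each KO group on effector KO 4 (4.77) and on memory KO 1 and 4 (7.39 each). Cd27 and Cd28 were not low on these arrays as a set.

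Lists of genes used as markers of other cells also differed on the same arrays, in a direction that the lists did not share. The mean of 6 NK cell markers was 7.23 on effector KO 4, against 6.57 to 6.74 on the other effector KO arrays, and it was 7.58 and 7.32 on memory KO 1 and 4, against 7.03 and 7.25 on memory KO 2 and 3. The mean of 8 markers of CD4 and regulatory T cells was 6.17 on effector KO 4, against 6.40 to 6.55 on the other effector KO arrays. It was 6.15 and 5.97 on memory KO 1 and 4, against 6.35 and 6.42 on memory KO 2 and 3. Within that list the genes differed, with 4 higher and 4 lower in KO in effector cells, and 3 higher and 5 lower in memory cells. Cd5 was higher in KO in both subsets, at 0.27 in effector and 0.23 in memory cells, and Zbtb7b in memory cells, at 0.41. Ikzf2, a transcription factor gene of regulatory T cells, had its 3 lowest values on the same arrays, with 5.63 on effector KO 4, against 8.04 to 8.43 on the other effector KO arrays, and 6.22 and 5.36 on memory KO 1 and 4, against 6.81 and 6.73 on memory KO 2 and 3. Its KO minus WT differences were -0.91 ± 0.49 in effector cells and -1.41 ± 0.49 in memory cells, and those of its relative Ikzf4 were -0.69 ± 0.33 and -0.94 ± 0.33, none past the threshold. The lineage gene Cd4 averaged 4.40 in effector KO, 4.14 in effector WT, 4.28 in memory KO and 4.67 in memory WT, and Foxp3 averaged 5.48, 4.96, 5.52 and 5.56 in the same order. Array medians were 4.1169 to 4.2214. Of the NK cell markers, Klrk1, Klre1, Eomes and Gzmm lay above the array median on all 16 arrays. Eomes averaged 10.04 in effector KO and effector WT, 9.49 in memory KO and 9.71 in memory WT. The list mean cannot tell NK cells from other cells that express these genes. Klrb1c did so on 3 of 8 effector and 8 of 8 memory arrays, with means of 5.78 in memory KO and 4.93 in memory WT, and Ncr1 on 0 of 8 effector and 3 of 8 memory arrays. CD8 T cell markers averaged 11.38 on effector KO 4 and 11.32 and 11.41 on memory KO 1 and 4. The mean of B and CLL cell markers was 5.52 on effector KO 4, against 5.20 to 5.29 on the other effector KO arrays. In memory cells it went the other way, with 5.93 and 5.98 on KO 1 and 4, against 6.19 and 6.51 on KO 2 and 3. The myeloid mean was 5.64 on effector KO 4, against 5.49 to 5.62. It was 5.72 and 5.59 on memory KO 1 and 4, against 6.43 and 5.83 on memory KO 2 and 3. Whether such cells were present on these arrays, and their part in the members' values, was not tested.

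The genes most like each member over the 16 arrays were read off by Pearson correlation among 11292 named genes that lay above the array median on at least 8 arrays. Since the points are arrays of 4 groups that share preparation and array effects, the coefficients are given as a description. Tnfrsf9 was most like Glp1r (r = 0.973), the receptor of an incretin hormone, Gpd2 (0.973), a mitochondrial glycerol phosphate dehydrogenase, and Tnfsf4 (0.968), the ligand of OX40. After group means were taken out these were 0.958, 0.946 and 0.946. Tnfrsf4 was most like Prelid2 (0.962), Odc1 (0.933), the rate-limiting enzyme of polyamine synthesis, and Pxmp2 (0.93), a peroxisomal membrane protein gene. Icos was most like Ryk, Zdhhc2 and Cers6 (0.917 to 0.927), and Tnfrsf18 like Pex11a, Chst12 and Tnfaip3 (0.9 to 0.917), the last an inhibitor of NF-kB signalling.

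Tnfsf8 was most like Treml2, Iigp1 and Il6ra (0.978 to 0.979), genes that are also high in the memory arrays, and their coefficients after group means were 0.858, 0.739 and 0.743. Fasl was most like Gfi1, a transcriptional repressor, Setbp1 and Nsmaf (0.957 to 0.966), and Cd27 like Plekhg2, Ctsa and Sipa1 (0.941 to 0.95). For Ctsa and Sipa1 the coefficients after group means were 0.295 and 0.344, so their likeness to Cd27 lay mostly between the groups. Cd28 reached 0.825 with Klf16, and Tnfsf10 reached 0.875 with Rgs3.

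**Figure D4:**
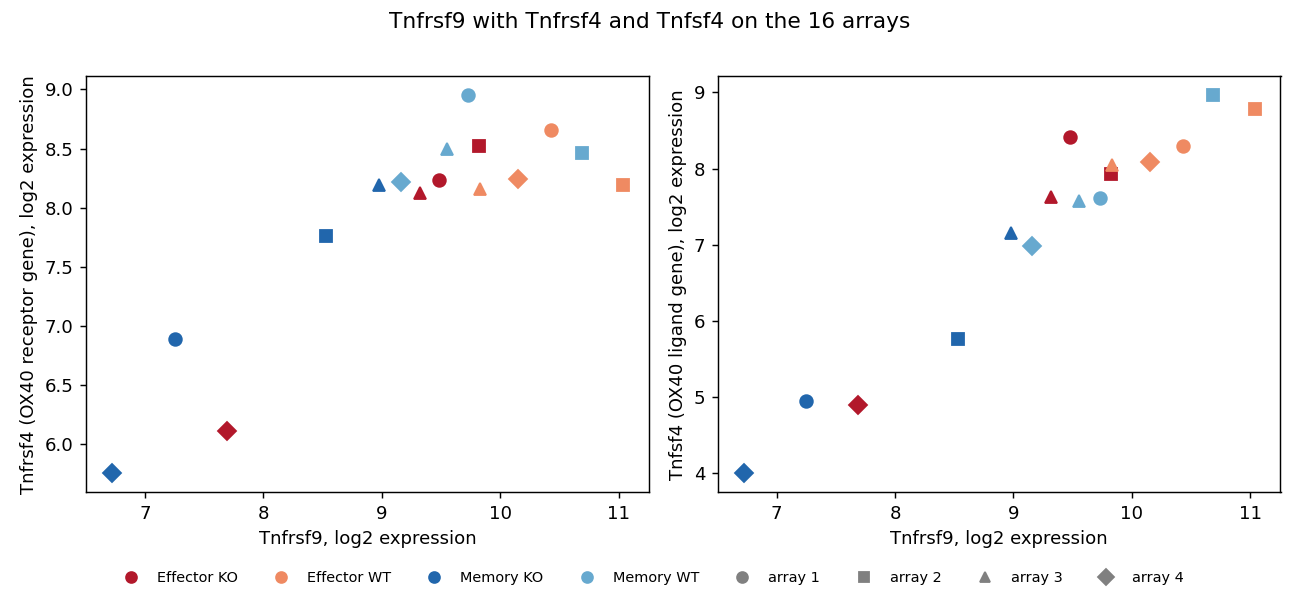
Log2 expression of Tnfrsf4 (left) and Tnfsf4 (right) against Tnfrsf9 on the 16 arrays; colour gives the group and shape the array number. Arrays memory KO 4, memory KO 1 and effector KO 4 lie at the lower left of both panels, and the WT arrays lie at Tnfrsf9 values of 9.16 or more.

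The binding partners of the members were described from a list of 10 genes, with 0 of 10 past the threshold between KO and WT in either subset. Tnfsf4, the gene of OX40 ligand, read 8.41, 7.93, 7.63 and 4.90 in effector KO, against 8.29, 8.78, 8.04 and 8.09 in effector WT, and 4.95, 5.77, 7.15 and 4 in memory KO, against 7.61, 8.96, 7.58 and 6.99 in memory WT. Its memory difference was -2.31 ± 0.69 (limma adjusted p = 0.216), and the lowest arrays were those named for Tnfrsf4 and Tnfrsf9. Fas, the receptor of Fas ligand, went the other way in effector cells, with 7.37, 6.74, 7.08 and 7.40 in KO against 6.33, 5.75, 6.48 and 6.78 in WT, which overlapped (0.81 ± 0.20, limma adjusted p = 0.302). Cd86, a ligand of CD28, was at -0.41 ± 0.13 in memory KO against WT (limma adjusted p = 0.253). Between the subsets 1 of the 10 passed, Icosl, the ligand of ICOS, at -0.49 ± 0.12 in effector against memory cells (limma adjusted p = 0.0144), where 12.2% of all genes passed. Cd70, the ligand of CD27, lay above the array median on 0 of 16 arrays.

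Other TNF superfamily genes were read from a separate list. Of 21 measured of 23 listed, 1 passed as higher and 8 as lower in effector cells, against 5.05% and 7.11% of all genes. Tnfrsf26, a mouse TNF receptor gene, was at -2.19 ± 0.18 (limma adjusted p = 1.37e-06) and Ltb, the gene of lymphotoxin beta, at -0.69 ± 0.07 (limma adjusted p = 1.05e-05). Tnfsf14, the gene of LIGHT, was at -0.87 ± 0.18 and Tnfrsf25 at -0.75 ± 0.17, both past the threshold. Between KO and WT 0 of 21 passed in either subset, with Tnfrsf14, a receptor of LIGHT, at 0.43 ± 0.14 in effector cells and 0.44 ± 0.14 in memory cells. Tnfsf13b, the gene of the B cell factor BAFF, was at -1.26 ± 0.37 and -0.92 ± 0.37 (limma adjusted p = 0.44 and 0.364).

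Of lists of genes downstream of receptors, 0 of 13 measured TRAF and NF-kB adaptors, 0 of 12 genes listed under CD28 and ICOS signalling and 0 of 4 death receptor signalling genes passed between KO and WT in either subset. Tnfaip3 was at -0.39 ± 0.17 in effector cells and -0.43 ± 0.17 in memory cells, and Traf2, an adaptor of OX40 and 4-1BB, at -0.39 ± 0.14 in memory cells (limma adjusted p = 0.299). Between the subsets Traf2 and Traf5 were higher in effector cells, both at 0.40 ± 0.10 (limma adjusted p = 0.0132 and 0.0159). They were the 2 of 13 adaptors that passed, where 12.2% of all genes passed in either direction and 5.05% as higher. Among the genes listed under CD28 and ICOS signalling 3 of 12 passed, all lower in effector cells, as 7.11% of all genes were. They were the survival gene Bcl2l1 at -0.55 ± 0.08, the phosphoinositide 3-kinase subunit gene Pik3r5 at -0.59 ± 0.13 and the kinase gene Prkcq at -0.36 ± 0.10. Whether they act with CD28 or ICOS in these cells was not tested. The inhibitory relatives of CD28 split, with Pdcd1 (1.18 ± 0.28) and Ctla4 (0.82 ± 0.16) higher and Btla (-0.76 ± 0.12) lower in effector cells, all 3 past the threshold. Between KO and WT 0 of 3 passed in either subset. Pdcd1 was at -0.63 ± 0.40 in effector cells and -1.71 ± 0.40 in memory cells (limma adjusted p = 0.637 and 0.123). Btla was at -0.10 ± 0.17 and 0.25 ± 0.17. Pdcd1 and Ctla4 were both lowest on memory KO 4, then memory KO 1.

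Promoter sequences were available for 7 of the 9 members, from RefSeq on build GRCm38.p6, as 250 bases before to 50 after a transcription start. They were searched on both strands for letters of an AP-1 motif (TGANTCA), an NF-kB motif (GGG, any 2 bases, TTTCC) and a T-box motif (AGGTGTGA), motifs of factors known from activated and effector T cells. Matches were found in 1 of the 8 promoters, at the downstream of 2 listed starts of Tnfrsf9, with NF-kB letters from base -43 and AP-1 letters from base -15, which do not overlap. Over all 32851 promoters of this length, 1.63% held the NF-kB letters, 7.81% the AP-1 letters and 1.28% the T-box letters. The sequences of the downstream Tnfrsf9 start, of the neighbours Tnfrsf4 and Tnfrsf18, which were lowest on the same arrays, and of Tnfsf8, the member with the widest gap between subsets, are shown with matches in capitals. A match is no evidence of binding, and no match says only that these letters are not in the window.
Tnfrsf9, chr4:150927749-150928048, plus strand: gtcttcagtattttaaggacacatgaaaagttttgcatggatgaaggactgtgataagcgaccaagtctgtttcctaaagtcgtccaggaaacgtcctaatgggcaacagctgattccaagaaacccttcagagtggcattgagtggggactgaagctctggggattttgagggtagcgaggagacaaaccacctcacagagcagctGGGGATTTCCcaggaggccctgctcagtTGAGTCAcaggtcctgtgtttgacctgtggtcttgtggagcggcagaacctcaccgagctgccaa
Tnfrsf4, chr4:156013445-156013744, plus strand: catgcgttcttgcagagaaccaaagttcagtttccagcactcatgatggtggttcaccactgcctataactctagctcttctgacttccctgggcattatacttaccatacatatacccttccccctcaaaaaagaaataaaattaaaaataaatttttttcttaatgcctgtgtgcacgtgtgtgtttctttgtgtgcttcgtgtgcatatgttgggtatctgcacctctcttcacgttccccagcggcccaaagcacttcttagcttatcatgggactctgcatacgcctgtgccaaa
Tnfrsf18, chr4:156026072-156026371, plus strand: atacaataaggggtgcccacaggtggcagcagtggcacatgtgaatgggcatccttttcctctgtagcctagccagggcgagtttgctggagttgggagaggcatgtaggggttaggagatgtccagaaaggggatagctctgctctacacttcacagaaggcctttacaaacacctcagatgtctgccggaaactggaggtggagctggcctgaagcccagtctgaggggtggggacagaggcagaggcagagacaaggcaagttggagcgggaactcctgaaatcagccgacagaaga
Tnfsf8, chr4:63861235-63861534, minus strand: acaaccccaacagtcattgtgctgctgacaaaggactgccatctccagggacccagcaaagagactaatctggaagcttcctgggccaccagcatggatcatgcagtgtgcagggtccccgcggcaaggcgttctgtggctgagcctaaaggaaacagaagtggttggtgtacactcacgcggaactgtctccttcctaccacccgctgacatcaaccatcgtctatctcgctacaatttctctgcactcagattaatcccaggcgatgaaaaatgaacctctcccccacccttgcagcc
Their GC content was 51% at the downstream Tnfrsf9 start, 43.7% for Tnfrsf4, 55.3% for Tnfrsf18 and 54% for Tnfsf8, with a median of 52.7% over all promoters. They held 6, 6, 4 and 9 CpG sites, against a median of 7.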

How the data were processed

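CD8 T cell RNA was amplified with the Affymetrix GeneChip WT Pico kit from 1 ng and hybridised to 1-colour arrays, per the labels' protocols. The deposited table holds 41345 probe sets on 16 arrays, as log2 expression normalised by the authors. The log base was inferred from the range of 0.7365 to 14.0453, and no source used here names the normalisation method or gives a background level. True folds may therefore differ from those given. Separately, the number of arrays limits the precision. The probe table gave 23521 probe sets with 1 gene symbol; for 1082 genes with several, the one with the highest mean was taken, which left 22180 genes.

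limma 3.58.1 in R 4.3.3 fitted 4 group means to all arrays (12 residual and 4.23 prior degrees of freedom). Tests are two-sided, Benjamini-Hochberg adjusted over all genes per comparison, with a threshold of 0.05. Errors of differences are standard errors. The members and gene lists were chosen with earlier results of these data known. All members are named, and from other lists up to 4 genes with the smallest p per comparison. A marker gene named for its cell type was chosen after its values were seen. Alternatives were another normalisation, filter, probe set rule, set of arrays, weights, spread estimate and replicate block, and leaving out each array. The pipeline was tested on simulated data.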

Additional observations from a re-analysis of the deposited data

Results flagged for a closer look

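Within each group of 4 arrays, the gap between an extreme value and its nearest neighbour was set against the whole range, by Dixon's test at the 95% level. Of 36 gene and group pairs examined, 4 passed its critical ratio, and chance alone marks about 1 in 20. In effector KO, array 4 was low for Icos, at 6.89 (ratio 0.843), for Tnfrsf4, at 6.11 (ratio 0.835), and for Tnfsf10, at 7.17 (ratio 0.858). In effector WT, array 1 was high for Tnfrsf4, at 8.66 (ratio 0.845).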

How the results depend on the processing

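The 9 called member values were refitted 222 times. None turned direction and 3 calls were lost, all of Fasl within WT. The 54 uncalled values were refitted 1299 times, with 18 calls gained and 38 turns of direction in 9 values. Leaving out 1 array gave the following ranges of genes passing: 4 to 42 for effector KO against WT (12 with all arrays), 11 to 249 for memory KO against WT (25), 23 to 329 over both subsets (43), 0 to 5 for the interaction (0), 961 to 2044 for effector against memory in KO (1649), 359 to 1037 in WT (715) and 2144 to 3221 over both genotypes (2696). Members passing ranged from 0 to 1 for memory KO against WT and over both subsets, and from 3 to 7 for effector against memory over both genotypes. Turned values ranged from -0.1 to 0.03 (Fasl, effector KO against WT), -0.15 to 0.07 (Cd28, memory KO against WT) and -0.03 to 0.03 (Cd27, both subsets). Interactions ranged from -0.02 to 0.33 (Icos), -0.16 to 0.11 (Tnfrsf18), -0.29 to 0.19 (Tnfsf8) and -0.17 to 0.1 (Tnfsf10). Effector against memory ranged from -0.1 to 0.02 (Cd28) and -0.05 to 0.46 (Tnfrsf4). Quantile normalisation gave Cd28 0.01 in memory KO against WT, and median centring gave a Tnfrsf18 interaction of 0.01. A filter on dim genes gave 92 genes over both subsets and Tnfsf10 passed between subsets (0.36, adjusted p = 0.0483). Fits to the compared arrays alone, with fewer samples, gave 4 and 7 genes for KO against WT in effector and memory cells, and 600 and 1320 for effector against memory in KO and WT. Array weights gave 42 genes in memory cells, 72 over both subsets, 1644 for effector against memory in WT, 5 members between subsets over both genotypes (Tnfrsf9 and Tnfsf10 added), and interactions of 0.05 (Tnfrsf18) and -0.04 (Tnfsf8). The cause of these shifts was not tested.

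Same-numbered arrays deviated together only in part, with correlations of 0.018 to 0.147 between effector KO and memory KO and 0.087 to 0.239 between effector WT and memory WT. Between KO and WT they were -0.032 to 0.138 in effector cells and 0.016 to 0.119 in memory cells. Arrays correlated best with their own number in 6, 8, 5 and 3 of 8 cases for these 4 pairs of groups, which for effector with memory arrays is a hint of pairing from the data. Since the labels state no pairing and 1 of 4 pairs in each genotype was under 0.1, the numbers were not taken as pairs. With the replicate number as a block that joined KO and WT arrays too, 29 genes passed in effector KO against WT, 104 in memory KO against WT and 389 over both subsets. Tnfrsf9 was the 1 member passing with that block in memory cells (-1.91, adjusted p = 0.0268) and over both subsets (-1.6, adjusted p = 0.00647), and it also passed between subsets over both genotypes (0.9, adjusted p = 0.0247) and in KO (1.21, adjusted p = 0.0431). With the number as a replicate block within genotype, Tnfrsf9 passed between subsets over both genotypes (0.9, adjusted p = 0.0062) and in KO (1.21, adjusted p = 0.0125), and it was the 1 member added in each.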
